A study of Mus musculus with 11 samples.

Results

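Trimethylation of lysine 4 on histone H3 (H3K4me3) was compared between mouse embryonic stem cells and the ureteric epithelium of the embryonic kidney, using the peak list deposited for each. All peaks of both lists on chromosomes 1 to 19 and X were taken, which gave 66694 stem cell peaks and 23887 ureteric peaks, or 90581 regions of the 389607 in the 6 peak lists of the series. A stem cell peak was called lost if no ureteric peak overlapped it by at least 1 bp and kept if one did, and a ureteric peak with no stem cell peak over it was called gained. The stem cells were the wild-type line E14, of 129/Ola origin, at passage 15. The ureteric cells carried GFP fluorescence from 1 copy of Hoxb7myr-Venus, a transgene driven by the Hoxb7 promoter, and were sorted from E15.5 kidneys of mice on a C57BL/6J background whose founders were (C57BL/6J x CBA/J)F2. Beside these, H3K27me3 lists of the same 2 populations were read, with the lists of Cited1-RFP+ cap mesenchyme (the nephron progenitors, Cited1nuc-TagRFP-T, E18.5), and RNA of ureteric bud and metanephric mesenchyme dissected by hand from wild-type C57BL/6 kidneys at E11.5. Each group held 1 sample, and the number of libraries pooled into a list was not stated in the labels, so differences have no replicate behind them and none was tested. E14 is 1 established line, and the 2 populations also differ in strain, in culture against tissue, and in the transgene, which cannot be told apart from cell type.

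H3K4me3 is laid down by the COMPASS family of methyltransferases at the starts of genes that are transcribed or ready for transcription, most of them rich in CG dinucleotides. Unusually wide domains of the mark are known from genes that define a cell's identity. In stem cells many starts of developmental regulators carry it together with H3K27me3, the mark of the Polycomb repressive complexes, a state called bivalent. The ureteric epithelium is the branching tube that grows out of the nephric duct under GDNF signalling through the receptor Ret and becomes the collecting duct system.

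As examples that cannot stand for whole classes, the bases just before the start of 8 genes are printed for the 3 outcomes. They were taken from RefSeq on GRCm38.p6 (the assembly also called mm10), 250 bases each, written 5′ to 3′ along the gene with every CG dinucleotide in capitals. The first 3 are pluripotency genes whose start was lost and whose peaks were among the 10 widest lost ones at coding genes. The Pou5f1 stretch is chr17:35505782-35506031 on the plus strand and holds 8 CG. The Nanog stretch is chr6:122707239-122707488 on the plus strand and holds 3. The Zfp42 stretch is chr8:43307010-43307259 on the minus strand and holds 9.
Pou5f1: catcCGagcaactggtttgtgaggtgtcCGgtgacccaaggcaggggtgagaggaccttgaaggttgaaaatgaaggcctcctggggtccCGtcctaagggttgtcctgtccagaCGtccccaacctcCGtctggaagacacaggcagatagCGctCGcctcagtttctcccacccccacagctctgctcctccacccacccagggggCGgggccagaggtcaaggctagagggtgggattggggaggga
Nanog: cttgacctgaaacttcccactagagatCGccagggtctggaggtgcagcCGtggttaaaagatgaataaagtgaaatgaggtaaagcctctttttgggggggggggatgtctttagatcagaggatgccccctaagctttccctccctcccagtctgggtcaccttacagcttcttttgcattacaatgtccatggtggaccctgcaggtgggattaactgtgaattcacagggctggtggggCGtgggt
Zfp42: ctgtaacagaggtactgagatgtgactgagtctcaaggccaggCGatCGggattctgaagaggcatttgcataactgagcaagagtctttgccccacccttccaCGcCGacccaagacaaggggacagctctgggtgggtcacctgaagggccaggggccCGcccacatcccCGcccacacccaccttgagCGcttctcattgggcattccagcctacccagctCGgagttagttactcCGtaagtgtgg

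The next 3 are genes whose start was gained. Wfdc15b, which encodes a secreted protein with a WAP domain, and Aldh1a1, a retinaldehyde dehydrogenase, were chosen for their ureteric RNA, and Tie1, a receptor of endothelial cells, for the endothelial group described further on. The Wfdc15b stretch is chr2:164221664-164221913 on the minus strand and holds 6 CG. The Tie1 stretch is chr4:118489850-118490099 on the minus strand and holds 6 as well. The Aldh1a1 stretch is chr19:20492333-20492582 on the plus strand and holds 3.
Wfdc15b: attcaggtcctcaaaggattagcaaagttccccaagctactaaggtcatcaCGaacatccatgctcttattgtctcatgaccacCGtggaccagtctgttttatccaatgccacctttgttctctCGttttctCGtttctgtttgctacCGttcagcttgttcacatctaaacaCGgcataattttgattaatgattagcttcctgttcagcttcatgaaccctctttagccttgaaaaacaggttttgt
Tie1: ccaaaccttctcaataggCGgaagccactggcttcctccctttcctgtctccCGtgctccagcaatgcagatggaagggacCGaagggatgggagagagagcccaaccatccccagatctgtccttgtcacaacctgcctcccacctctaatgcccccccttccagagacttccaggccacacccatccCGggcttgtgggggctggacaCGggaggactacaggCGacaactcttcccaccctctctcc
Aldh1a1: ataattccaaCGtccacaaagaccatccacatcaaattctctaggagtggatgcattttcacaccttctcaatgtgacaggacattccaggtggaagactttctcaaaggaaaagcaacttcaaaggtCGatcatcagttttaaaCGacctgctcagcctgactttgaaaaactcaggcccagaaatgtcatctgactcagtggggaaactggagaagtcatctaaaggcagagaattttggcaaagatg

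A pair of kept starts with opposite differences in width was taken for the third outcome. Kept starts were not all rich in CG: the 250 bases before the kept Pax2 start, not printed, held 5 CG. Emx2, a homeobox gene needed for the ureteric bud, had a wider peak in ureteric epithelium, and Sp1, a general activator of CG-rich promoters, had a wider peak in stem cells. The Emx2 stretch is chr19:59458440-59458689 on the plus strand and holds 24 CG. The Sp1 stretch is chr15:102406066-102406315 on the plus strand and holds 11.
Emx2: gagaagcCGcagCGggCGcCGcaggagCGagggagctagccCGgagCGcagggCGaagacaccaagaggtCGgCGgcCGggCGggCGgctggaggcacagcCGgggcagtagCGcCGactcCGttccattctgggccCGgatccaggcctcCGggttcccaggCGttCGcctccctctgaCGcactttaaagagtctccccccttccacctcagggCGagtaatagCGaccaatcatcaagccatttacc
Sp1: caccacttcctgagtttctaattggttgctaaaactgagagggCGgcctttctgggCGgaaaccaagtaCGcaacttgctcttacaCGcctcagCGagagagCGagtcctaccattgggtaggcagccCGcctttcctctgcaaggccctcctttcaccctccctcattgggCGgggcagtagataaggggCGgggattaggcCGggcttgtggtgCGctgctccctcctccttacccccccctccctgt

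The ureteric list lay largely within the longer stem cell list. Of the stem cell peaks, 48022 were lost, 72.0% of the list with a 95% exact binomial (Clopper-Pearson) interval of 71.7 to 72.3%. Of the ureteric peaks, 4166 were gained, 17.4% (17.0 to 17.9%), and the other 19721 were kept. With the stem cell list shortened to the 23887 peaks of highest score, 59.4% of its peaks were kept and 35.8% of ureteric peaks were gained. These intervals, like all below, cover counting error over peaks or genes only. The shared sequence came to 37.4 Mb, which was 88.3% of the 42.4 Mb under ureteric peaks and 27.5% of the 136 Mb under stem cell peaks. In all, 64.0% of ureteric peaks lay inside a single stem cell peak, and 1.11% of stem cell peaks inside a ureteric one. Close to the minimum overlap, 31 stem cell peaks were kept by 100 bp or less, with a median score of 142, and 44 lost ones had a ureteric peak within 100 bp, with a median score of 128. Requiring a reciprocal overlap of 50% changed more, to 21.0% of stem cell peaks kept and 41.3% of ureteric peaks gained.

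Lost and gained peaks were on the whole weaker and narrower than kept ones and mostly lay away from gene starts. Each peak carries the authors' score, whose meaning the labels do not state, and it was used only to rank peaks within a list. Lost stem cell peaks had a median width of 1269 bp and a median score of 142, against 2628 bp and 744 for kept ones. Gained ureteric peaks had a median width of 623.5 bp and a score of 76.5, against 1785 bp and 452 for kept ones. Within 1 kb of a gene start lay 7.88% of the lost and 71.8% of the kept stem cell peaks, and 12.6% of the gained and 69.7% of the kept ureteric peaks. Of stem cell peaks away from gene starts 10.6% were kept, against 78.0% of those at starts. For ureteric peaks the same shares were 62.1% and 96.3%. The cap mesenchyme list, which the calls did not use, overlapped 10.3% of lost and 96.1% of kept stem cell peaks, and 49.4% of gained and 95.3% of kept ureteric peaks.

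**Figure D1:**
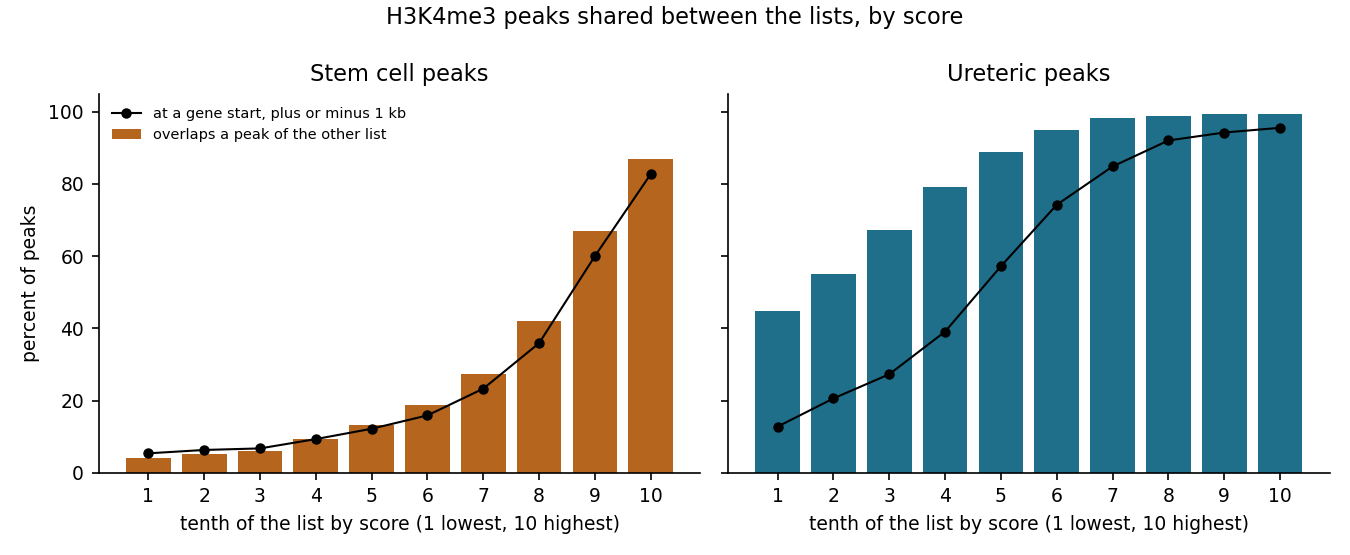
Share of H3K4me3 peaks that overlap a peak of the other list (bars) and that lie within 1 kb of a gene start (line and points), in percent, for 10 equal bins of each list ordered by the authors' score, with stem cell peaks on the left and ureteric peaks on the right. The kept share runs from 4.05% to 86.8% over the stem cell bins and from 44.9% to 99.2% over the ureteric bins, and the share at gene starts rises beside it.

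At the level of genes, most starts marked in ureteric epithelium were already marked in stem cells. A gene was counted as marked where at least 1 bp of a peak fell within 1 kb of any of its starts. Of 34324 genes (21627 protein-coding and 12697 long noncoding), 15896 were marked in both lists (46.3%), 3659 were lost (10.7%), 428 were gained (1.25%) and 14341 were marked in neither. These 3 shares are the background for the gene lists below, and among the 21627 protein-coding genes, from which all list members came, they were 61.6%, 8.36% and 0.994%. The order of the lost and gained counts turned around when the stem cell list alone was shortened, but not when both lists were cut. The upper 50% of each list by score gave 4797 lost and 336 gained. A score of at least 100 in both gave 3620 and 364. With only the 23887 stem cell peaks of highest score, a list as long as the ureteric one, 1472 genes were lost and 2219 gained. A ureteric peak lay elsewhere in the gene, or within 1 kb of it, for 677 of the 3659 lost genes, so that 2982 had none. A stem cell peak lay elsewhere in 155 of the 428 gained genes, which left 273.

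Genes of the pluripotency network held several of the widest lost H3K4me3 domains at coding genes. Of 30 pluripotency factors, all marked in stem cells, 18 were lost and 12 were kept, and the counts were also 18 and 12 with the shortened stem cell list. The 10 widest lost peaks at coding genes included those of Zfp42 (20.6 kb, chr8:43290955-43311554), Tdh (19.3 kb), Pou5f1 (13.6 kb, chr17:35498354-35511963) and Nanog (12.6 kb, chr6:122704638-122717217). Pou5f1 and Nanog encode core factors of the stem cell state, Zfp42 is the stem cell zinc finger Rex1, and Tdh is a threonine dehydrogenase on which mouse stem cells depend. All 4 were without H3K4me3 at their start in the ureteric list and at 0.113 FPKM or less in ureteric bud RNA. Also among the 10 were Fbxo15, a target of Pou5f1 and Sox2, the zinc fingers Zfp600 and Zfp980, the interferon-induced membrane protein gene Ifitm1, and 2410137M14Rik.

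Sox2, the partner of Pou5f1, had a stem cell peak of 25358 bp over its start and no ureteric peak there. That peak overlapped a ureteric peak away from the start, so the peak was kept although the start was lost. The developmental pluripotency genes Dppa2, Dppa3, Dppa4 and Dppa5a were lost as well, with stem cell widths of 8457, 5344, 8064 and 21042 bp. Dppa5a shared its 21042 bp peak with Ooep, an oocyte gene whose own start kept 1291 bp in ureteric epithelium. The remaining lost factors were the signalling genes Fgf4, Tdgf1, Gdf3, Lefty1 and Lefty2, the RNA-binding Lin28a, Prdm14, Utf1 and Tcl1. None of the 18 but Lin28a reached 1 FPKM in ureteric bud (Lin28a 2.24 FPKM). H3K27me3 lay at 9 of the 18 lost starts in ureteric epithelium and at 1 of them, Prdm14, in stem cells. The ureteric H3K27me3 list was much longer, with 136696 peaks against 12731, so these 2 counts are not alike. Over all lost genes the shares were 19.1% in ureteric epithelium and 17.8% in stem cells. At 8 of the 18 the cap mesenchyme list held H3K4me3, Sox2 with 1962 bp among them.

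The 12 kept pluripotency factors were narrower in ureteric epithelium in 11 cases. Width was compared as the log2 of the widest ureteric over the widest stem cell peak at the starts of a gene, and the median of the 12 was -1.62, against -0.47 over all 15896 kept genes. Trim71, a stem cell ubiquitin ligase and target of the let-7 microRNAs, had the widest kept peak of the stem cell list, 45391 bp, and 5407 bp in ureteric epithelium. Zfp57, which guards imprinted regions, went from 12082 to 1515 bp. Sall4 went from 19255 to 2720 bp and Nodal from 12542 to 1854 bp. Tbx3 was the exception, with 8728 bp in stem cells and 12248 bp in ureteric epithelium. Tbx3 was also at 55.5 FPKM in ureteric bud and 1.51 FPKM in metanephric mesenchyme. Klf5 and Tfcp2l1, both known from kidney epithelia too, were kept with 2865 and 3663 bp and had 12.5 and 17.8 FPKM in ureteric bud.

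**Figure D2:**
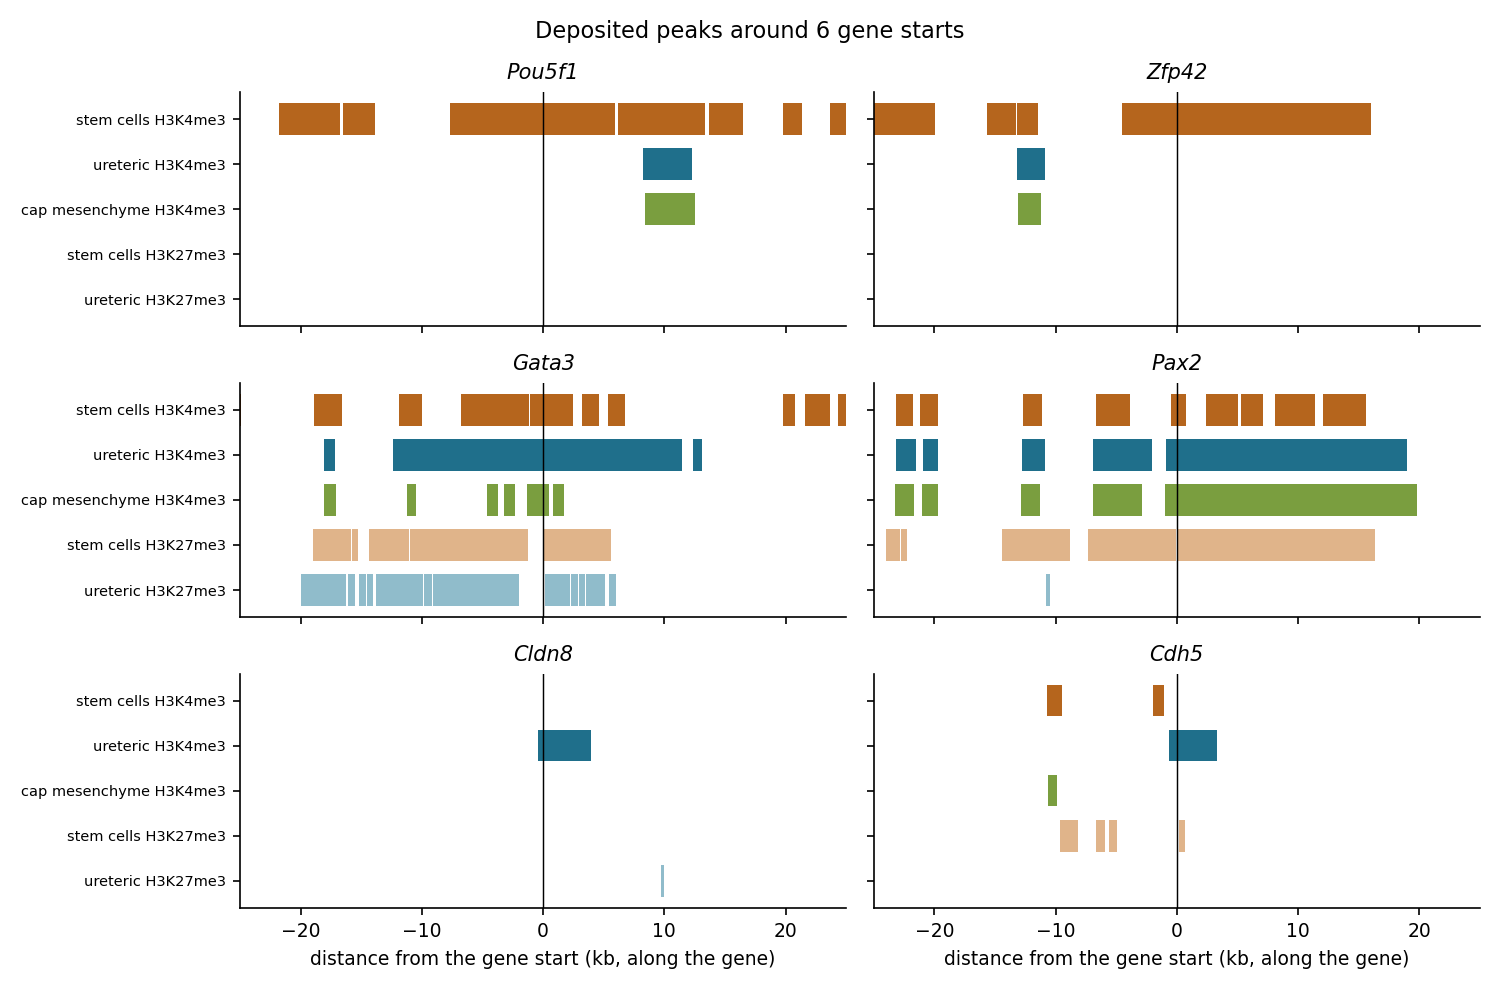
Deposited peaks as blocks within 25 kb of the start of 6 genes, in kb along the gene, with H3K4me3 of stem cells, ureteric epithelium and cap mesenchyme above H3K27me3 of stem cells and ureteric epithelium. Pou5f1 and Zfp42 have a stem cell block over the start and no ureteric one, Gata3 and Pax2 have a wide ureteric block where stem cells have short ones, and at Cldn8 and Cdh5 the only H3K4me3 block over the start is the ureteric one.

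Transcription factors of other lineages had the largest lost share of the 26 gene lists, and nearly all the lost ones carried the Polycomb mark in both populations. Of 42 such factors, 32 were lost, 8 were kept and 2 were marked in neither. With the shortened stem cell list, 21 were lost, a smaller share than the 18 of 30 pluripotency factors. All 32 had H3K27me3 at the start in stem cells, and 31 had it in ureteric epithelium, Olig1 being the one without. Over all genes with H3K27me3 in stem cells, 71.3% of lost and 47.9% of kept ones had it in ureteric epithelium. Pax6, the regulator of eye and brain, had 12724 bp of H3K4me3 and 8006 bp of H3K27me3 in stem cells and 14015 bp of H3K27me3 alone at the start in ureteric epithelium. The gut factor Cdx2, the forebrain factor Otx2 and the heart and limb factors Hand1 and Hand2 likewise had both marks in stem cells and H3K27me3 alone at the start in ureteric epithelium. Cap mesenchyme kept H3K4me3 at 23 of the 32. Sim1, known from the hypothalamus and also from the nephric duct, was the only one of the 8 kept factors with a wider ureteric peak. It had 2294 bp in stem cells and 13894 bp in ureteric epithelium, and 22.1 FPKM in ureteric bud.

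Losses of germ cell genes, like those over all genes, depended on the length of the stem cell list. Of 20 germ cell and meiosis genes, 10 were lost, 1 was gained (Dazl) and 9 were marked in neither. With the shortened stem cell list 2 were lost, while the count over all genes fell from 3659 to 1472. Stra8, the gene that responds to retinoic acid at the entry into meiosis, had the widest of these stem cell peaks, 4052 bp. No gene of this list reached 1 FPKM in either tissue. Among 17 neuronal genes 8 were lost, Stmn2 with 6097 bp the widest. Of the 8, 7 had H3K27me3 in ureteric epithelium, against 19.1% of all lost genes. Of 13 podocyte genes 5 were lost, with the nephrin gene Nphs1 at 7913 bp in stem cells. Of 18 blood and immune genes 6 were lost, 6 were kept and none was gained. With the shortened stem cell list, 4 neuronal, 3 podocyte and 2 blood and immune genes were lost.

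Genes of the ureteric bud were for the most part marked in stem cells too, and the widest peak at their starts was mostly wider in ureteric epithelium. Of 24 ureteric tip genes, 21 were kept, 1 was gained (Ros1) and 1 was lost (Hoxb7). All 24 reached 1 FPKM in ureteric bud, against 12 in metanephric mesenchyme. Of the 21 kept genes, 17 had the wider peak in ureteric epithelium, and the median log2 width ratio was 0.72, against -0.47 over all kept genes. Gata3, a zinc finger factor required for the nephric duct, had 3603 bp in stem cells, 22440 bp in ureteric epithelium and 1764 bp in cap mesenchyme. Pax2, required throughout early kidney development, had 3244, 19863 and 20791 bp in the same order. Gata3 had 95.7 FPKM in ureteric bud and 1.51 FPKM in metanephric mesenchyme, and Pax2 had 41.1 and 15.1 FPKM. By widest single peak, Gata3 was thus wide in ureteric epithelium alone among the 3 H3K4me3 lists. Pax2 was as wide in cap mesenchyme. In stem cells, and at Gata3 in cap mesenchyme, the mark was split into several peaks, so single widths understate the stretch marked. Stem cell peaks covered -6750 to -1145 and -1105 to 2497 bp of the Gata3 start, and a ureteric peak covered -12403 to 10036 bp. The 3244 bp Pax2 peak ran from 8138 to 11381 bp of the start, with other stem cell peaks on both sides. Widths with such peaks joined are not given here.

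Several other transcription factors of this tissue also had a wider single peak in ureteric epithelium than in stem cells. Emx2 had 4811 bp in stem cells, 14540 bp in ureteric epithelium and 2908 bp in cap mesenchyme. Lhx1, a LIM homeobox factor of the nephric duct, had 5386, 13856 and 4904 bp. Tfap2b had 2761 bp in stem cells and 9282 bp in ureteric epithelium, with no peak at the start in cap mesenchyme. Receptors and ligands were closer to even. Ret, the GDNF receptor of the bud, had 2244 bp in stem cells and 3700 bp in ureteric epithelium. Wnt11, a ligand of the bud tips, had 5468 and 6701 bp. The exceptions were led by Etv5, a target of Ret signalling, which had 13883 bp in stem cells and 5258 bp in ureteric epithelium. Calb1, the calcium-binding protein with 1685 FPKM in ureteric bud, had 1371 and 1557 bp, so a high RNA level did not go with a wide domain there.

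**Figure D3:**
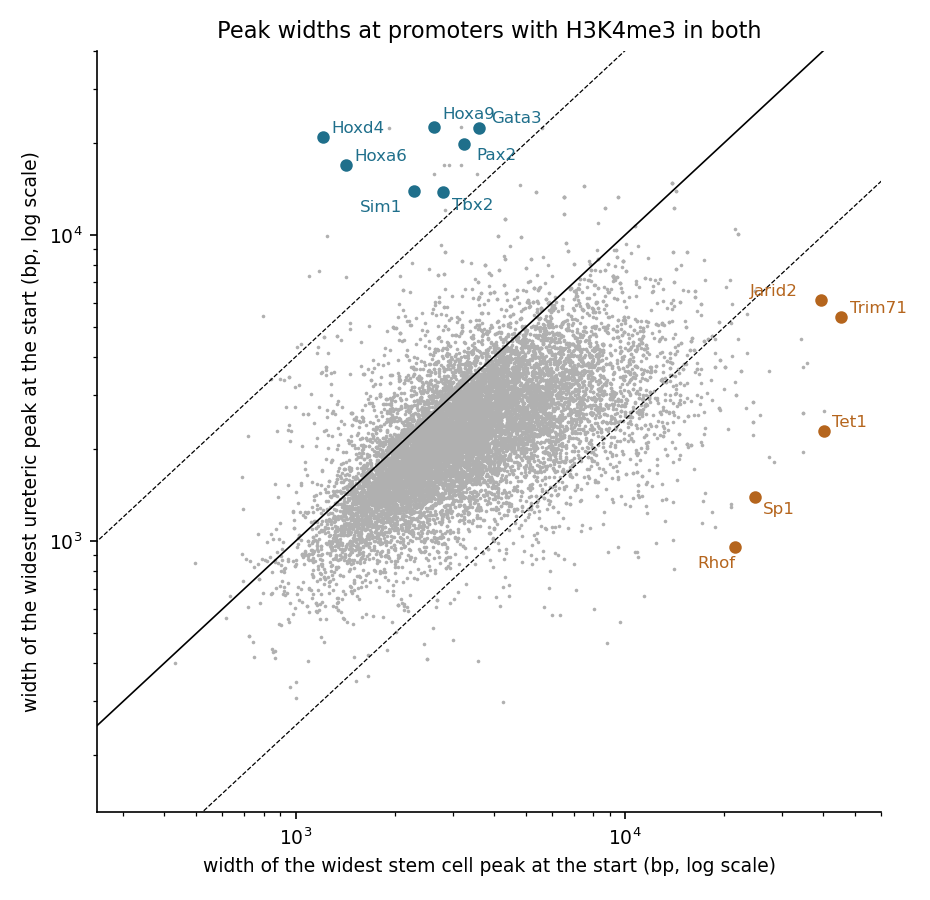
Width of the widest ureteric peak against the width of the widest stem cell peak at the starts of the 15896 kept genes (1 point per gene, both axes in bp on a log scale), with the line of equal width solid and lines of 4-fold difference dashed. Most points lie below the solid line, with 88.7% of genes wider in stem cells, and the named ureteric and Hox genes lie above the upper dashed line.

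Across all kept genes, domains were wider in stem cells. The median width at kept starts was 3132 bp in stem cells and 2236 bp in ureteric epithelium, and the median log2 ratio of -0.47 had a 95% interval of -0.48 to -0.46 over genes and quartiles of -0.87 and -0.21. A wider stem cell peak was found at 14102 genes and a wider ureteric peak at 1790. A 4-fold difference in favour of stem cells was found at 478 genes (3.01%) and in favour of ureteric epithelium at 28 (0.176%). The median widths of the whole lists differed far less and in the other direction. They were 1485 bp in stem cells and 1550 bp in ureteric epithelium, a log2 ratio of 0.06. For this reason the ratio of a single gene or list is given beside -0.47. Whether the difference in width over all kept genes lies in the cells or in the libraries was not tested.

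The genes most reduced in width included regulators of the stem cell epigenome. Of 12 DNA methylation genes all were kept, with a median log2 width ratio of -1.21. Tet1, the dioxygenase that oxidises methylcytosine in stem cells, had 40187 bp in stem cells and 2283 bp in ureteric epithelium, a log2 ratio of -4.14. Dnmt3l, the cofactor of de novo methylation, had 9507 and 960 bp, and both RNA columns listed it at 0 FPKM. Tet3 was the only one of the 12 with a wider ureteric peak, 3317 bp against 2495 bp. Rhof, a small GTPase gene, had the largest difference by the naming rule, 21586 bp against 955 bp. Sp1 followed with 24824 and 1394 bp, then Gm36712 with 9688 and 546 bp and Mpdu1 with 34602 and 1951 bp. The Mpdu1 peak ran across the starts of Cd68, Eif4a1, Senp3, Sox15 and Tnfsf13 as well, so its width belongs to a gene cluster. Slc7a7, an amino acid transporter gene, had 14097 and 812 bp.

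Housekeeping-type lists shared this direction. The median log2 ratio was -0.83 for 25 genes of the histone methylation machinery, -0.72 for 26 cell cycle genes and -0.99 for 18 housekeeping genes, and all but 2, 1 and 2 of them were kept. Jarid2, a Polycomb cofactor, had one of the widest kept stem cell peaks, 39294 bp (39.3 kb). Cdh1, the epithelial cadherin that stem cells also express, had 21613 bp in stem cells and 3319 bp in ureteric epithelium although its RNA was at 72.2 FPKM in ureteric bud.

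The 4 Hox clusters, which encode positional identity along the body axis, did not all behave alike. In HoxA all 11 genes were kept, and the median log2 width ratio was 2.53. Ureteric peaks of 22543 bp (chr6:52219469-52242011) and 16879 bp (chr6:52202314-52219192) ran over Hoxa7, Hoxa9 and Hoxa10 and over Hoxa3, Hoxa5, Hoxa6 and Hoxa7. In stem cells the widest peak of the cluster was 4.88 kb. Hoxa9 and Hoxa10 nevertheless had 0.168 and 0.206 FPKM in ureteric bud, and 12.2 and 25.9 FPKM in metanephric mesenchyme.

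HoxB went the other way. Of its 10 genes 7 were lost, Hoxb4 to Hoxb9 and Hoxb13, 2 were kept and Hoxb3 was marked in neither, and with the shortened stem cell list 3 were lost. Hoxb7, whose promoter drives the transgene that marked the sorted cells, had 5872 bp in stem cells, no ureteric peak in the gene or within 1 kb of it, and 75.8 FPKM in ureteric bud RNA. Hoxb8 and Hoxb6 had 69.2 and 62.0 FPKM in ureteric bud and likewise no ureteric peak in the gene. In cap mesenchyme a single peak of 45460 bp covered the starts of Hoxb3 to Hoxb8. The ureteric H3K27me3 list was empty at the starts of 6 of the 7 lost genes, all but Hoxb13, so neither mark was listed there. The stem cells carried both marks at all 7. Why the ureteric list has no peak over these starts was not tested.

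HoxD was close to HoxA in the share of the cluster covered in ureteric epithelium, and HoxC stood apart by its H3K27me3. In HoxD 6 of 9 genes were kept, 2 were lost (Hoxd12 and Hoxd13) and Hoxd9 was gained with 6268 bp (chr2:74695410-74701677). Hoxd4 had the largest gain in width of all by the naming rule, from 1215 bp in stem cells to 20930 bp in ureteric epithelium, a log2 ratio of 4.11, with 33.3 FPKM in ureteric bud. In HoxC 6 of 9 genes were kept and 3 lost, with a median log2 ratio of 0.07. With the shortened stem cell list no HoxD gene was kept and 7 were gained, 5 HoxC genes were kept and 1 was gained, and 6 HoxA genes were kept and 5 gained. Over each whole cluster, ureteric peaks covered 69.8% of HoxA, 69.3% of HoxD, 30.5% of HoxC and 18.2% of HoxB, against 52.6%, 35.9%, 36.6% and 33.5% for stem cell peaks. Ureteric H3K27me3 covered 25.3%, 26.8%, 92.5% and 9.50% in the same order. HoxC was thus the cluster most covered by H3K27me3 in ureteric epithelium, and HoxB the one least covered by either mark.

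Starts marked only in ureteric epithelium were few, and the wide ones included epithelial and endothelial genes. Of 35 epithelial junction and identity genes 27 were kept, 4 were lost and 3 were gained, Cldn8, Ehf and Cdh16. Cldn8, a tight junction claudin of the collecting duct, had a ureteric peak of 4308 bp (chr16:88559267-88563574) and no stem cell peak in the gene. Its RNA was 51.7 FPKM in ureteric bud and 0.0314 FPKM in metanephric mesenchyme. Cdh16, the kidney cadherin, had 2548 bp in ureteric epithelium and 26.0 FPKM in ureteric bud against 0 FPKM in metanephric mesenchyme. Ehf, an ETS factor of epithelia, had a smaller peak of 1132 bp and 0.896 FPKM. The kept epithelial genes had a median log2 width ratio of -0.30, with Epcam, Esrp1 and Grhl2 all marked in stem cells already.

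The 10 gained genes with the highest ureteric RNA were led by Capn6 (60.1 FPKM), Aldh1a1 (58.2 FPKM) and Cldn8, followed by Wfdc15b (47.8 FPKM). Ros1, a receptor tyrosine kinase gene of the ureteric tip, had a peak of 2172 bp and 19.9 FPKM in ureteric bud. The Aldh1a1 peak was narrow, 493 bp, with a score of 57.6 near the list's minimum of 50, and a stem cell peak lay elsewhere in that gene. Aldh1a1 and Wfdc15b were both listed at 0 FPKM in metanephric mesenchyme. Hprt, the purine salvage enzyme used for drug selection in stem cell lines, had 2267 bp in ureteric epithelium, 1975 bp in cap mesenchyme and no peak anywhere in the gene in the stem cell list. The other genes of this set were Paip1, Tmem176b, the imprinted gene Nnat, Serpinf1 and Cdh16. Nnat had no stem cell peak in the gene either, with 2358 bp in ureteric epithelium and 29.7 FPKM.

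Markers of endothelial cells, which line blood vessels and are not part of the ureteric lineage, were among the gained starts. Of 19 endothelial genes 4 were gained (Cdh5, Tie1, Emcn and Robo4), 14 were kept, none was lost and Lyve1 was marked in neither, against 1.25% gained over all genes. The counts were the same under the shortened stem cell list, but 2219 of all 34324 genes were then gained, and so were 7 of 9 HoxD, 8 of 17 renal stroma, 5 of 11 HoxA and 6 of 25 nephron progenitor genes. Cdh5, the cadherin of endothelial junctions, had a ureteric peak of 4005 bp with a score of 1390. A stem cell peak from -1965 to -1080 bp of the Cdh5 start lay just outside the 1 kb window, so its call as gained depends on that window. Emcn, a sialomucin of capillaries, had 3927 bp. Tie1 had 2847 bp and Robo4 2919 bp. None of these 4 had a peak at the start in cap mesenchyme. Of the 14 kept endothelial genes 12 were wider in ureteric epithelium, with a median log2 width ratio of 0.62, led by Tek, the angiopoietin receptor, with 1459 bp in stem cells and 5176 bp in ureteric epithelium.

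Endothelial genes were also among the widest gained peaks at coding genes. These 10 peaks lay at Pcdh12 and Rnf14 (6.75 kb), Hoxd9 (6.27 kb), Aplnr (5.55 kb), Cd93 (5.49 kb), an inner start of Erg (5.23 kb), Thra (5.04 kb), Tmem204 (4.85 kb), Ldb2 (4.63 kb), Cldn8 (4.31 kb) and Myct1 (4.15 kb). Pcdh12, Aplnr, Cd93 and Erg are known from endothelial cells. Ldb2 had the highest score of all gained peaks at coding genes, 2956. In the RNA, 2 of the 19 endothelial genes reached 1 FPKM in ureteric bud (Plvap and Egfl7) and 15 in metanephric mesenchyme, with summed levels of 13.5 and 66.4 FPKM, and Lyve1 was listed at 0 in ureteric bud. That RNA came from tissue dissected at E11.5, not from the sorted E15.5 cells. The part of endothelial cells in the sorted sample was not tested. In bulk samples such as these, few cells with a strong mark and many cells with a weak one cannot be told apart.

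**Figure D4:**
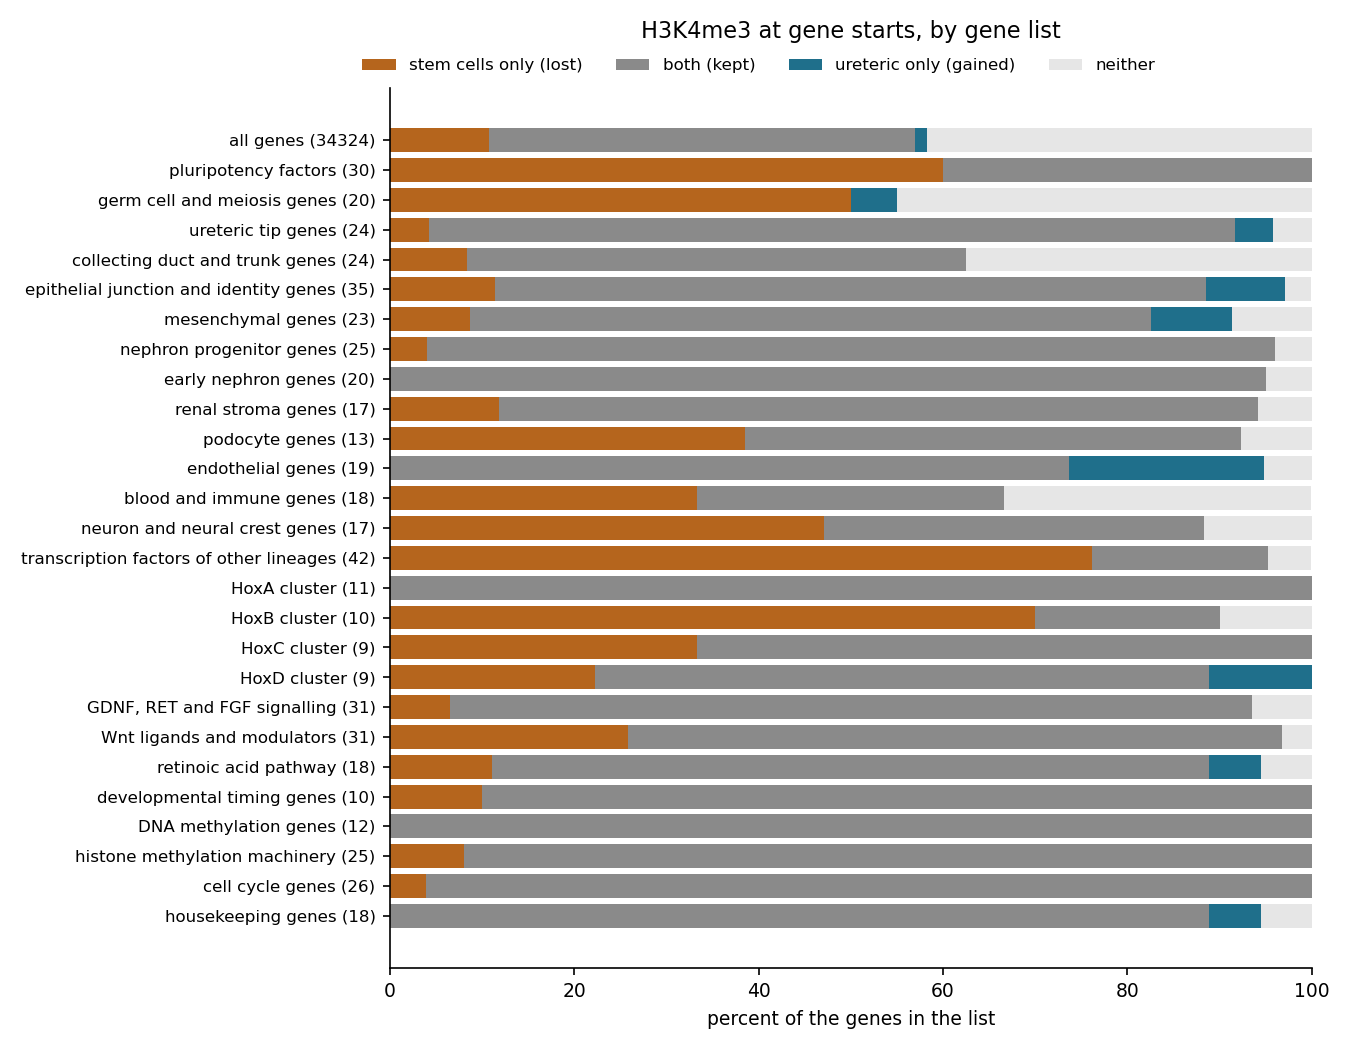
Share of the genes of each list, in percent, whose start carried H3K4me3 in stem cells only, in both populations, in ureteric epithelium only or in neither, with all 34324 genes on top and the number of genes in parentheses. Transcription factors of other lineages (32 of 42), HoxB genes (7 of 10) and pluripotency factors (18 of 30) have the 3 longest lost segments, and endothelial genes (4 of 19) the longest gained one.

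Other kidney lists were largely marked in both when the full lists were compared. Of 25 nephron progenitor genes 23 were kept, 1 was lost and none was gained, with a median log2 width ratio of 0.03, although these genes belong to the neighbouring mesenchyme. Of 17 renal stroma genes 14 were kept, with a median ratio of 0.76, but with the shortened stem cell list 6 were kept and 8 gained. That list also moved 6 nephron progenitor genes to gained, leaving 17 kept. Of 20 early nephron genes 19 were kept, with a median of 0.46. Of 23 mesenchymal genes 17 were kept, 2 were lost (Twist2 and Pdgfra) and 2 were gained (Dcn and Postn, with 670 and 618 bp). Of 24 collecting duct and trunk genes 13 were kept, 2 were lost (Krt7 and Upk3a) and 9 were marked in neither. The unmarked ones included Aqp2, the water channel regulated by vasopressin, and Avpr2, its hormone's receptor. Krt7 was lost although its RNA was at 24.9 FPKM in ureteric bud.

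Most genes in signalling pathways of branching were kept, but Wnt genes were lost more often than coding genes at large. Of 31 genes of GDNF, RET and FGF signalling 27 were kept and 2 lost, of 31 Wnt ligands and modulators 22 were kept and 8 lost, and of 18 genes of the retinoic acid pathway 14 were kept, 2 lost and Aldh1a1 gained. The lost shares were 6.45%, 25.8% and 11.1% in that order, against 8.36% of all protein-coding genes. With the shortened stem cell list 22, 19 and 11 genes were kept and 5, 3 and 4 gained. Of the 8 lost Wnt genes 7 had H3K27me3 in ureteric epithelium and 6 had it in stem cells, against 19.1% and 17.8% of all lost genes. H3K27me3 at the kept members of the lists is not given here. Of 10 developmental timing genes, the let-7 and Lin28 axis, Lin28a alone was lost.

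RNA levels, which had no part in the calls, separated the classes. A ureteric bud level of at least 1 FPKM was found for 69.1% of kept genes (68.3 to 69.8%), 17.1% of gained genes (64 of 375 with a value, 13.4 to 21.3%), 5.78% of lost genes (180 of 3116, 4.98 to 6.65%) and 2.04% of genes marked in neither. In metanephric mesenchyme the same shares were 66.6%, 18.7%, 5.49% and 2.27%, so gained genes were no more often at that level in the bud than in its neighbour tissue. Lost genes with a ureteric peak elsewhere in the gene reached 1 FPKM in 14.6% of cases (11.9 to 17.6%), and those with none in 3.60% (2.91 to 4.41%). By number, 90 genes of each kind reached 1 FPKM. The 10 lost genes with the most ureteric RNA, chosen by that RNA, also included both kinds. Ash2l, Rad21, Tcf20, Luc7l2, Msi1 and Rnf220 each had a ureteric peak elsewhere in the gene, while Cdkn1c, Hoxb7, Hoxb8 and Hoxb6 had none. For Ash2l, Rad21 and Msi1 among the first set, and for Cdkn1c, Hoxb7 and Hoxb6 among the second, the start was inferred and not taken from RefSeq. Cdkn1c, an imprinted inhibitor of cyclin-dependent kinases, had 3733 bp in stem cells, 3172 bp in cap mesenchyme and 79.5 FPKM in ureteric bud.

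**Figure D5:**
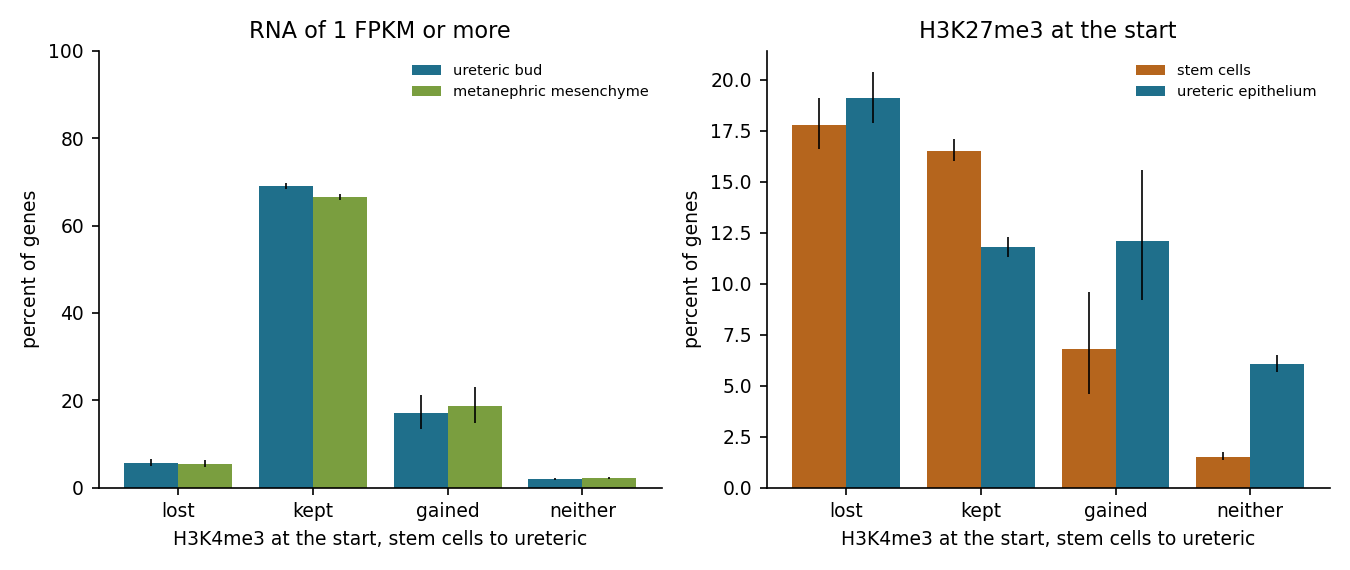
Left, percent of genes with at least 1 FPKM of RNA in ureteric bud or metanephric mesenchyme, and right, percent of genes with H3K27me3 at the start in stem cells or ureteric epithelium, for the 4 classes of H3K4me3 at the start. Bars are shares of genes and error bars 95% exact binomial intervals over genes. Kept genes reach 69.1% in ureteric RNA against 5.78% for lost ones, and lost genes have the tallest ureteric H3K27me3 bar, 19.1%.

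H3K27me3, the other mark outside the calls, was a minority state among lost genes. It lay at 17.8% of lost, 16.5% of kept and 6.78% of gained starts in stem cells, and at 19.1%, 11.8% and 12.1% in ureteric epithelium. The 2 H3K27me3 lists differ in length and score minimum, with 12731 peaks from 40 in stem cells and 136696 from 30 in ureteric epithelium. Genes marked with H3K4me3 in neither list stood at 1.53% and 6.09%. Shares can therefore be compared between classes within a population, but not between the populations. In ureteric epithelium H3K27me3 was listed more often at lost than at kept starts, with or without the mark in stem cells. Among genes with H3K27me3 in stem cells, ureteric H3K27me3 was listed at 465 of 652 lost starts, 71.3% (67.7 to 74.8%), and at 1258 of 2629 kept starts, 47.9% (45.9 to 49.8%). Without H3K27me3 in stem cells, it was listed at 7.82% of lost and 4.66% of kept starts. Pou5f1, Zfp42 and Gdf3 belong to the large remainder of lost genes that carried H3K27me3 in neither population. The cap mesenchyme list marked 33.1% of lost, 99.2% of kept and 64.3% of gained starts with H3K4me3.

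The promoter windows held for each class can be described by their CG content. The ratio of observed to expected CG had a median of 0.758 in kept, 0.315 in lost and 0.285 in gained windows, and of 0.171 in windows of genes marked in neither. The windows were the 300 RefSeq bases around 1 start per gene, the first listed. They were held for 80.4% of kept, 75% of lost and 75.7% of gained genes. A gene with several starts may have been classed by a start other than the one in its window. Coverage under 80% voids a comparison of whole classes, so these medians describe the windows held. Single promoters departed from them: over the 250 bases printed, the ratio was 0.59 for the gained Wfdc15b and 0.50 for the kept Sp1. Short motifs were counted on both strands. The octamer ATTTGCAT, the core of the binding site of Pou5f1, was in 1.60% of lost windows and 1.77% of all windows, the Zfp42 stretch printed above among the carriers. TATAAA was in 12.6% of lost, 6.85% of kept, 15.7% of gained and 14.2% of all windows. CCGGAAGT, a site of ETS factors, was in 2.00%, 7.44%, 0.926% and 4.03%. AACCGGTT, a site of grainyhead factors, was in 0.109%, 0.242%, 0.309% and 0.153%. A match is only a run of letters and was not tied to binding.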

How the data were processed

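Native chromatin was cut with micrococcal nuclease and precipitated with 1 antibody per mark, per the labels' protocols. The submitters' processing notes name Bowtie2 and MACS, and for RNA TopHat, Cufflinks and Cuffdiff, with the build mm10. Neither the labels nor the files state versions, settings, controls or read numbers, so depth is unknown. The deposited peak lists give a score per peak, the authors' own value. The deposited RNA table gives the authors' FPKM, 1 column per tissue. Here Python 3.11.15, pandas 2.3.3, numpy 2.4.6 and scipy 1.17.1 were used. Peaks on chromosomes 1 to 19 and X were called shared at 1 bp of overlap, with code tested on simulated data. Gene starts were all RefSeq starts for 26793 genes, the outer bound with a strand inferred from locus order in the RNA table for 6514 (it matched the RefSeq strand in 100% of 24128 genes) and both ends for 1017. FPKM were summed per gene over transcripts paired by accession (106331) or locus (17905) of 138486. All transcripts not paired with a gene were left out, among them 5290 with no reference. Named genes were the 10 widest lost and gained peaks at coding genes, the gained peaks of highest score, the 8 kept coding genes with the largest width ratio in each direction (at least 2 kb in the wider list), the 10 lost and 10 gained coding genes with the most ureteric RNA, and list members. Members and the 26 gene lists were chosen with earlier results of these data known. Alternatives changed list length, score minimum, peak joining, overlap, promoter window, width measure, FPKM minimum and mark overlap. Input libraries were not analysed here. Some members of the named sets are not reported here.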

Additional observations from a re-analysis of the deposited data

Results flagged for a closer look

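Both lists held peaks outside chromosomes 1 to 19 and X, which no comparison above used. On chromosome Y the stem cell list had 274 peaks, the widest of 11675 bp, and the ureteric list had 35. On unplaced or random contigs they had 53 and 29. On the mitochondrial genome, which carries no histones, the ureteric list had 7 peaks and the stem cell list 1. No control list was at hand for these regions.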

How the results depend on the processing

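Of 59 alternative values, 23 stayed within their limit and 36 moved, and the signed width ratio kept its sign. The share of stem cell peaks kept (28.0%) was 59.4% with the stem cell list shortened to the ureteric length, 33.5% in the upper 50% of each list by score, 32.2% at a score of at least 100, 30.2% with peaks closer than 1 kb joined and 21.0% at a reciprocal overlap of 50%. In the same order the share of ureteric peaks gained (17.4%) was 35.8%, 5.07%, 10.1%, 16.6% and 41.3%. The shortened list gave 1472 genes lost and 2219 gained, so that gained genes outnumbered lost ones. With both lists cut, lost genes stayed the more numerous. They were 4797 against 336 gained in the upper 50% of each list, and 3620 against 364 at a score of at least 100. These counts were among those within their limit. Requiring no stem cell peak in the gene or within 1 kb, a setting chosen after seeing the data, left 273 gained genes. The median log2 width ratio was -0.49 with joined peaks and -0.53 for bases covered within 5 kb of the start. Genes 4-fold wider in stem cells numbered 915 and 275 under these settings, and those 4-fold wider in ureteric epithelium fell from 28 to 5 under the second. The share of lost genes with ureteric RNA was 9.24% at 0.5 FPKM, 2.12% at 5 FPKM and 9.34% among coding genes. For kept genes it was 74.3%, 48.5% and 77.2%, and for gained genes 22.1%, 9.33% and 27.5%. With a peak required over 50% of the window, stem cell H3K27me3 lay at 10.3% of lost, 6.70% of kept and 2.34% of gained starts, ureteric H3K27me3 at 14.3%, 4.99% and 3.27%, and cap mesenchyme H3K4me3 at 17.1%, 94.7% and 34.3%. The cause of these moves was not tested, beyond fewer peaks or stricter limits by construction. Using genes with a RefSeq start alone, also chosen after seeing the data, gave 2744 lost, 12787 kept and 324 gained. No paired analysis was possible because each group held 1 sample. The lists' read depth is unknown, so an absent mark and one under a list's limit cannot be told apart.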

Other observations

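The following groups were picked after their values were seen, so their counts are descriptions only. Over all protein-coding genes 8.36% were lost, 61.6% kept and 0.994% gained. A run of zinc finger genes on distal chromosome 4 held 17 coding genes, of which 11 were lost, 4 kept, 1 gained and 1 marked in neither, with Zfp600 (14.1 kb) and Zfp980 (13.5 kb) the widest stem cell peaks. Of these 17 genes 6 reached 1 FPKM in ureteric bud. Among 57 clustered protocadherins, cell surface proteins of neurons that are transcribed from alternative starts, 37 were lost, 4 kept and none gained, and 20 carried H3K4me3 in cap mesenchyme. All 57 starts were inferred and not taken from RefSeq. Of 1110 olfactory receptor genes 14 were lost, 3 kept and 1093 marked in neither.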
